A study of Mus musculus with 20 samples.

Results

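The genes that copy and divide the genome were followed here through mouse colon, whose crypts hold the dividing cells of the gut lining. The set holds 33 genes, found by symbol in both deposited count tables, one of 56748 genes from animals on chow and one of 31184 genes from animals on a high-fat diet (HFD). They were kept as 10 S phase genes (Mcm2 to Mcm7, Cdc6, Pcna, Rrm2 and Tyms) and 23 mitotic genes (Mki67, Top2a, Ube2c, Cdc20, Ccnb1, Ccnb2, Ccna2, Cdk1, Plk1, Aurka, Aurkb, Birc5, Bub1, Bub1b, Cenpe, Cenpf, Kif11, Kif20a, Kifc1, Tpx2, Nusap1, Prc1 and Foxm1). All 33 had reads in all 20 libraries and passed the expression filter of each comparison.

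The study asked what loss of Pcca, a subunit of the mitochondrial enzyme propionyl-CoA carboxylase, does to transcription in the colon. The 5 groups held 4 colons each: chow Vill, in which Villin-Cre deletes floxed Pcca; chow Alb, a liver-specific knockout made with Albumin-Cre; chow ff, floxed littermate controls; HFD Vill; and HFD ff. Villin-Cre acts in intestinal epithelium, whereas the RNA came from whole flushed colon sections, muscle and immune cells included. Chow animals were killed at 9 weeks of age; HFD animals were male, were moved at 6 weeks of age to food that drew 60% of its calories from fat, and were killed at 18 weeks after 12 weeks on it. All were fasted for 4 hours. The labels give no strain, no sex for the chow animals and no pooling, and do not say which part of Pcca was deleted.

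Of the S phase genes, Mcm2 to Mcm7 encode the ring-shaped helicase that opens replication origins, and Cdc6 helps to load it. Pcna is the sliding clamp of the DNA polymerases, and Rrm2 and Tyms supply deoxynucleotides. Mitotic genes are switched on later, in G2 and M phase, largely under the transcription factor Foxm1 and MuvB complexes, which recognise CHR elements. S phase genes depend on E2F factors. In the colon both sets are used mainly by stem and transit-amplifying cells in the lower crypt, and also by dividing immune cells such as germinal centre B cells. In bulk RNA a smaller number of dividing cells and less of these transcripts per cell cannot be told apart.

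The chow libraries held 27857056 to 40385785 counted reads and the HFD libraries 16881567 to 24423757. Levels are CPM, counts divided by library size, with sizes adjusted over all 20 libraries by the trimmed mean of M values (TMM). Pcca itself stood at 27.9 to 33.9 CPM in chow Vill, 39.2 to 58.7 in chow Alb and 39.8 to 57.8 in chow ff. In HFD Vill it had 33.4, 37.3, 32.6 and 33.7 CPM, and in the libraries labelled HFD ff 28.9, 53.5, 31.2 and 59.5 CPM, so that the libraries labelled HFD ff 1 and 3 lay below all 4 HFD Vill libraries. These also had the highest sums over 20 small intestine genes on HFD (1800 and 2630 CPM, against 603 to 1140 CPM in HFD Vill and 621 and 920 CPM in HFD ff 2 and 4). The HFD medians of both classes are given with and without them. So are the mitotic counts by direction and at an unadjusted p under 0.05 in HFD Vill over ff. The S phase counts and the counts of groups without overlap, of higher means between tables and of highest or lowest libraries include them. Sums over 17 epithelial genes were 14100 to 24100 CPM in all libraries. In chow Alb 2 a list of squamous epithelium genes summed to 102 CPM, against at most 13.2 CPM elsewhere.

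Promoter windows from RefSeq (GRCm38.p6, 250 bases before to 50 bases after a gene's start) were found for 27 of the 33 genes, 29 windows in all. None was found for Mcm4, Aurkb, Ccna2, Foxm1, Tpx2 and Kif20a. The 5 windows below show the letters searched for: an S phase helicase gene (Mcm6), the ubiquitin-conjugating enzyme that helps cells leave mitosis (Ube2c), a mitotic cyclin (Ccnb2), and 2 mitotic genes that stand apart later, Plk1 and Cenpe, of which Cenpe holds neither CHR nor E2F letters. Capitals mark motifs on either strand, and overlaps between them are kept. The CHR element was searched for as TTNGAA, where N is T or C, and no other form of it was counted. The CCAAT box is written as its name says. The E2F site was searched for as TTNNCGC, where each N is C or G.

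Mcm6, chr1:128359656-128359955, - strand: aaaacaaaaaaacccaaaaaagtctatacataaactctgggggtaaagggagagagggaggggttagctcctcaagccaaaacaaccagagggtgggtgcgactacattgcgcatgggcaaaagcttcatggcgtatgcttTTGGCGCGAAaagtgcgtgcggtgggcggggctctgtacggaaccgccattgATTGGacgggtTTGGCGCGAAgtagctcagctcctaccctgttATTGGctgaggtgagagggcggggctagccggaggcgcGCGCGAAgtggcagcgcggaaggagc
Ube2c, chr2:164769679-164769978, + strand: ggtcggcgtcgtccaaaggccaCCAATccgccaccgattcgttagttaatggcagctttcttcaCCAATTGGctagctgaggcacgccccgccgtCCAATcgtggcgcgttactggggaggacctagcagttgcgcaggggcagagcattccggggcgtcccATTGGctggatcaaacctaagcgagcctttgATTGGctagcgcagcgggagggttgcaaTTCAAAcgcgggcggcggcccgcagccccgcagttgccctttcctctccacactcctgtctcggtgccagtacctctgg
Ccnb2, chr9:70421505-70421804, - strand: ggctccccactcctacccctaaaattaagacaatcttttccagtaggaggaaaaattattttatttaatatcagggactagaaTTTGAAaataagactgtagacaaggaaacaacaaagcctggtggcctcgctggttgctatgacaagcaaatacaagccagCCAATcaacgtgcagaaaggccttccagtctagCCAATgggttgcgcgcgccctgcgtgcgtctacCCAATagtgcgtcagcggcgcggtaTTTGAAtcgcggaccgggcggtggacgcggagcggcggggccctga
Plk1, chr7:122159185-122159484, + strand: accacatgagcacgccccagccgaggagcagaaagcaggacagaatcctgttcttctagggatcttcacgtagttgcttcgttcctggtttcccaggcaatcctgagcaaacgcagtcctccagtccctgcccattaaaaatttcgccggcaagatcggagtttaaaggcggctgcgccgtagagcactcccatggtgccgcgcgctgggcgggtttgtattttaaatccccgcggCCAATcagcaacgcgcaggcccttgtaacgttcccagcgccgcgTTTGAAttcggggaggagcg
Cenpe, chr3:135212313-135212612, + strand: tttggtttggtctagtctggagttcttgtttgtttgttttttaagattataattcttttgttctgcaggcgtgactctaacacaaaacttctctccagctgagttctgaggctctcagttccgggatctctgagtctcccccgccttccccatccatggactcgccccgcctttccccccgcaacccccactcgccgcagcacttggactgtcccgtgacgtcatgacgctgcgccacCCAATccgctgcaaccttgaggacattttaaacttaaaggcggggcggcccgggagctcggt

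Mcm6 holds 5 overlapping or separate E2F matches and no CHR, and Ube2c holds 6 CCAAT matches and 1 CHR that begins 29 bases before the start. CHR letters stood in 15 of 19 mitotic windows (78.9%) and in 2 of 10 S phase windows (20.0%), against 19.2% of all 32851 RefSeq mouse promoter windows of that length. E2F letters stood in 3 of 19 mitotic windows (15.8%) and in 7 of 10 S phase windows (70%), against 9.6% of all windows. CCAAT did not separate the classes, with 17 of 19 mitotic windows (89.5%) and 8 of 10 S phase windows (80.0%), against 37.4% of all windows. A CHR together with 2 or more CCAAT was found in 10 mitotic windows (52.6%) and in 1 S phase window (10.0%), against 2.3% of all windows. Mitotic genes with a window but without CHR letters were Birc5, Ccnb1, Cenpe and Nusap1. In a shorter window, 100 bases before to 50 bases after the start, E2F letters stood in 30.0% of S phase windows, against 5.6% of all windows. CHR letters stood in 78.9% of mitotic windows there, against 8.6% of all windows. Mcm7 and Prc1 have 2 windows each, of which those of Prc1 overlap, letters that overlap were all counted, and a match is not a measured binding site.

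**Figure D1:**
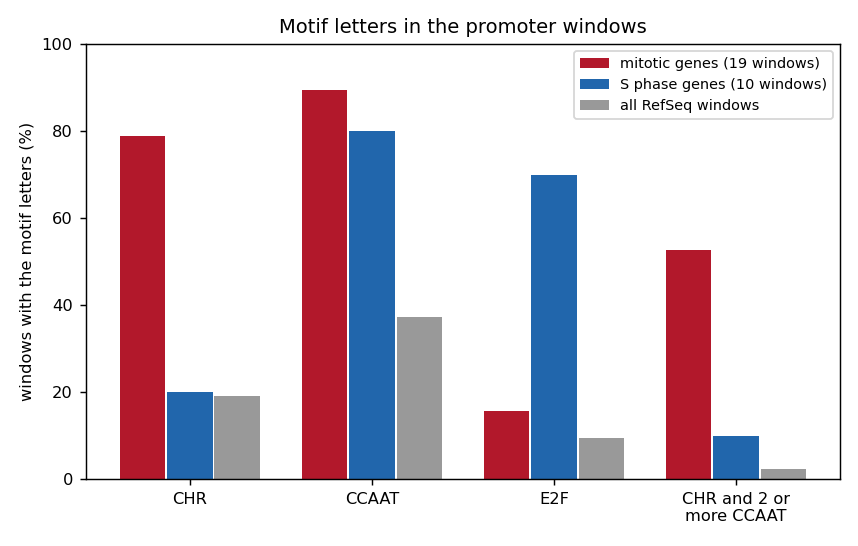
Share of promoter windows (%, vertical axis) that hold the letters of each motif (horizontal axis), for mitotic genes (red, 19 windows), S phase genes (blue, 10 windows) and all RefSeq windows (grey). CHR letters reach 78.9% of mitotic windows and E2F letters 70% of S phase windows.

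Per kb of exon, the polo-like kinase Plk1 was the most abundant of the 33, at a mean of 35.0 CPM per kb over the 20 libraries, followed by Pcna at 26.2, the proliferation marker Mki67 at 17.0 and cyclin B2 (Ccnb2) at 14.4. The helicase subunit Mcm6 stood at 12.7 CPM per kb and Mcm7 at 9.81. The lowest were Cenpf at 1.90 and Cdc6 at 1.48 CPM per kb; Cdc6 still had at least 98 reads in every library. The highest library exceeded the lowest by 3.06 to 7.22 times for the mitotic genes other than Plk1, with Birc5, a subunit of the chromosomal passenger complex, at the top, and by 2.27 to 5.65 times for the S phase genes. Plk1 varied by 1.55 times.

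**Figure D2:**
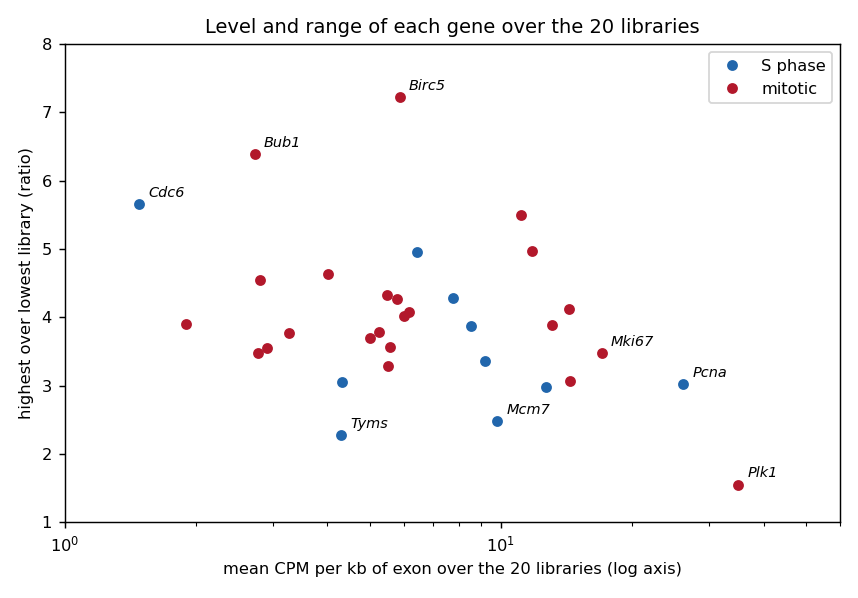
Mean level of each gene over the 20 libraries (CPM per kb of exon, horizontal log axis) and the ratio of its highest to its lowest library (vertical axis), S phase genes in blue and mitotic genes in red. Plk1 lies alone at the lower right, with 35.0 CPM per kb and a ratio of 1.55.

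Summed over the 23 mitotic genes, the level was 1070, 739, 952 and 763 CPM in chow Vill, 446, 379, 658 and 618 CPM in chow Alb, and 630, 665, 1140 and 839 CPM in chow ff. All 4 Alb colons lay below all 4 Vill colons, and the Alb colons other than Alb 3 lay below all 4 ff colons. The 10 S phase genes summed to 345, 332, 389 and 263 CPM in chow Vill, 276, 194, 274 and 342 CPM in chow Alb, and 248, 220, 322 and 411 CPM in chow ff, and these ranges overlapped in every pair of groups. The mitotic sum was thus 3.09, 2.23, 2.45 and 2.90 times the S phase sum in Vill, 1.62, 1.96, 2.40 and 1.80 times in Alb, and 2.54, 3.03, 3.55 and 2.04 times in ff. The ratio overlapped between Alb and either other group through Alb 3.

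On HFD the mitotic sum was 955, 1090, 1060 and 1300 CPM in Vill and 812, 1010, 681 and 1000 CPM in the libraries labelled ff. The S phase sum was 377, 581, 322 and 406 CPM in Vill and 447, 533, 273 and 317 CPM in ff. The highest libraries of the 2 classes differed, while the lowest were often shared. HFD Vill 2 had the highest level of 8 of the 10 S phase genes among the 8 HFD libraries, whereas HFD Vill 4 had the highest level of 22 of the 23 mitotic genes, and the library labelled HFD ff 3 had the lowest level of 9 S phase and 20 mitotic genes. On chow, Alb 2 was the lowest of 12 libraries for 20 of 23 mitotic genes and 6 of 10 S phase genes, and ff 3 was the highest for 14 mitotic genes but for 1 S phase gene. Between tables, 17 mitotic and 10 S phase genes had a higher mean in HFD ff than in chow ff. Diet, age, sequencing of the tables and possibly sex cannot be told apart, and levels were tested only within a table.

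**Figure D3:**
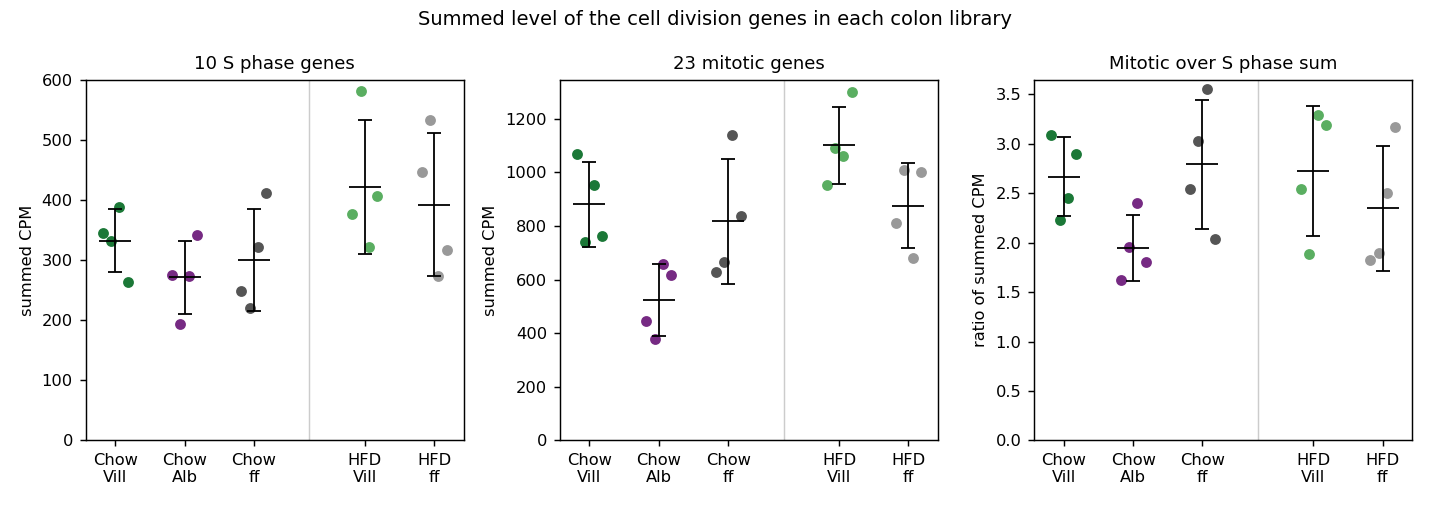
Summed CPM of the S phase genes (left) and the mitotic genes (middle) and their ratio (right) for each library (points), with the mean and SD of each group of 4 (black). The mitotic sums of chow Alb, 379 to 658 CPM, lie below those of chow Vill, 739 to 1070 CPM, while the S phase sums overlap.

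Liver-knockout colons (Alb) were set against floxed controls to see what loss of the enzyme outside the gut does to the colon. All 23 mitotic genes had a lower mean in Alb, with log2 differences of -0.91 to -0.17 and a median of -0.68, against 49.9% of genes lower and a median of 0.00 over all 19701 genes tested. The 10 S phase genes were lower by less, at -0.35 to -0.01 with a median of -0.18. No member passed an adjusted p under 0.05 in edgeR's quasi-likelihood test, by which 0% of all genes were called; DESeq2 (0.0116% of genes called) and limma-voom (0%) called no member either. At an unadjusted p under 0.05, 19 of the 23 mitotic genes and 0 of the 10 S phase genes were lower, against 2.66% of all genes. The count rested on single libraries: it was 4 without ff 3, 12 without ff 4, 7 without Alb 2 and 8 without Alb 1, though all 23 stayed lower in each of these fits. The mitotic genes also moved together, with Alb 2 the lowest chow library for 20 of 23, so the count is not one of independent observations.

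Cenpe, the kinesin that carries chromosomes to the spindle equator (chromosome 3, 134918298 to 134979372 in mm39), had 11.4, 13.5, 19.7 and 20.8 CPM in Alb and 24.6, 23, 41.1 and 29.0 CPM in ff. It was the one mitotic gene whose groups did not overlap, which held for 1.62% of all genes in that direction (log2 difference -0.85 ± 0.23 SE, edgeR adjusted p = 0.99, exact permutation p = 0.0286, the smallest that 4 against 4 allows). Prc1, which bundles microtubules of the central spindle, had 10.8, 9.48, 15.3 and 13.0 CPM in Alb and 14.8, 16.3, 29.7 and 19.2 CPM in ff. Its groups met between Alb 3 and ff 1 (log2 difference -0.72 ± 0.22 SE, edgeR adjusted p = 0.99, exact permutation p = 0.0571).

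Mki67 had 86.4, 76.2, 127 and 126 CPM in Alb and 123, 118, 241 and 186 CPM in ff. Alb 1 and Alb 2 lay below every ff colon and the other two within the ff range (log2 difference -0.68 ± 0.25 SE, edgeR adjusted p = 0.99, exact permutation p = 0.171). Ccnb2 had 13.8, 10.8, 18.9 and 14.3 CPM in Alb and 16.5, 18.6, 31.0 and 22.6 CPM in ff, at a log2 difference of -0.62. Foxm1, the transcription factor of the class, had 7.32, 6.86, 12.9 and 14.2 CPM in Alb and 13.2, 12.0, 23.9 and 18.5 CPM in ff, at a log2 difference of -0.71. Both overlapped. The largest difference of the set was that of Ube2c, at 16.8 ± 7.15 CPM in Alb and 31.6 ± 6.29 CPM in ff (SD, n = 4 each).

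The other mitotic genes can be read by their tasks. The anaphase activator Cdc20 (log2 difference -0.84), the minus-end kinesin Kifc1 (-0.85), the spindle assembly factor Tpx2 (-0.81) and the checkpoint kinase Bub1 (-0.77) were the lowest after Ube2c and Cenpe. The mitotic kinase Cdk1 (-0.64) and its partners Ccna2 (-0.68) and Ccnb1 (-0.66), the topoisomerase Top2a (-0.68), the spindle motor Kif11 (-0.67), the kinetochore protein Cenpf (-0.67), the spindle protein Nusap1 (-0.64), the checkpoint protein Bub1b (-0.55) and the kinase Aurka (-0.66) were also at an unadjusted edgeR p under 0.05. Those that were not were Birc5 (-0.62), its partner kinase Aurkb (-0.70), the cytokinesis kinesin Kif20a (-0.60) and Plk1 (-0.17).

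Among S phase genes the smallest p belonged to Pcna, at 49.4, 36.1, 51.5 and 46.4 CPM in Alb and 43.6, 45.8, 52.1 and 72.8 CPM in ff. Alb 2 lay below and ff 4 above the other colons, which held 43.6 to 52.1 CPM (log2 difference -0.22, 95% interval -0.59 to 0.14, edgeR adjusted p = 0.99, exact permutation p = 0.457). Thymidylate synthase (Tyms) had 19.7, 22.9, 17.6 and 21.9 CPM in Alb and 20.4, 18.2, 31.3 and 26.6 CPM in ff, with a log2 difference of -0.23 (interval -0.66 to 0.19). Mcm6 had 52.6, 36.1, 45.6 and 64.7 CPM in Alb and 40.9, 33.2, 56.9 and 69.9 CPM in ff, at a log2 difference of -0.01 that lay at 0.00 to 0.01 with RLE scaling, DESeq2, limma-voom or a replicate block. Mcm7 was at -0.06. All 10 intervals included 0 and reached from -0.98 to 0.53. Without ff 4 the S phase median was 0.04, and without Alb 2 it was -0.00.

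The gut knockout was next set against the liver knockout on chow. This comparison shares the Alb libraries with the comparison above. All 23 mitotic genes had a higher mean in Vill than in Alb, with log2 differences of 0.19 to 1.04 and a median of 0.80, and so had all 10 S phase genes, at 0.23 to 0.46 with a median of 0.27; 52.8% of all genes were higher, at a median of 0.02. No member passed an adjusted p under 0.05 in edgeR (0.00508% of genes called), DESeq2 (0.298% of genes called, lowest member adjusted p = 0.0914) or limma-voom (0.00508%). At an unadjusted edgeR p under 0.05, 22 mitotic genes and 0 S phase genes were higher, against 3.98% of all genes. The groups did not overlap for 14 mitotic genes and for 0 S phase genes, against 2.56% of all genes. With 1 library left out at a time, the number of mitotic genes at an unadjusted p under 0.05 was 16 to 22.

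Prc1 had 24.3, 19.3, 23.4 and 20.3 CPM in Vill, against 10.8, 9.48, 15.3 and 13.0 CPM in Alb (log2 difference 0.84 ± 0.22 SE, edgeR adjusted p = 0.46, exact permutation p = 0.0286). Cenpe had 34.7, 25.4, 31.9 and 27.5 CPM in Vill, against 11.4, 13.5, 19.7 and 20.8 CPM in Alb (log2 difference 0.87 ± 0.23 SE, edgeR adjusted p = 0.46, exact permutation p = 0.0286). Kifc1 had 17.9, 12.7, 18.5 and 14.2 CPM in Vill, against 7.70, 4.73, 9.61 and 8.73 CPM in Alb (log2 difference 1.04 ± 0.28 SE, edgeR adjusted p = 0.484, exact permutation p = 0.0286). In each of these genes every Vill colon exceeded every Alb colon. The authors' deposited table calls Prc1 (log2 fold change 0.83, adjusted p = 0.0212) and Kifc1 (log2 fold change 1.02, adjusted p = 0.0386), and no other member, with 0.209% of genes called there.

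Mki67 had 208, 162, 217 and 159 CPM in Vill, against 86.4, 76.2, 127 and 126 CPM in Alb, without overlap (log2 difference 0.84). The other mitotic genes without overlap were Cenpf, Top2a, Ccna2, Kif11, Tpx2, Cdc20, Bub1b, Bub1, Nusap1 and Kif20a. Ccnb2 had 31.4, 18.5, 25.9 and 21.9 CPM in Vill, against 13.8, 10.8, 18.9 and 14.3 CPM in Alb, and Foxm1 had 22.7, 14.1, 18.8 and 16.4 CPM in Vill, against 7.32, 6.86, 12.9 and 14.2 CPM in Alb. Each overlapped by a single pair of colons (log2 differences 0.76 and 0.80). Plk1, at 0.19, was the one mitotic gene above an unadjusted edgeR p of 0.05 (exact permutation p = 0.286).

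For S phase, Mcm5 had 41.6, 36.4, 48.7 and 31.0 CPM in Vill, against 30.5, 17.6, 26.8 and 39.9 CPM in Alb. Vill 2 and Vill 4 lay below Alb 4 (log2 difference 0.46, 95% interval -0.14 to 1.06, edgeR adjusted p = 0.661, exact permutation p = 0.114). Pcna had 57.2, 57.5, 57.2 and 47.3 CPM in Vill, against 49.4, 36.1, 51.5 and 46.4 CPM in Alb, overlapping through Vill 4 (log2 difference 0.26, interval -0.10 to 0.62). Without Alb 4, 2 S phase genes had an unadjusted edgeR p under 0.05, and without Alb 2 the S phase median was 0.14 and the mitotic median 0.63. All 10 S phase genes stayed higher in each fit without 1 library, at medians of 0.14 to 0.39. With all libraries their 10 intervals all included 0 and reached from -0.37 to 1.06.

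**Figure D4:**
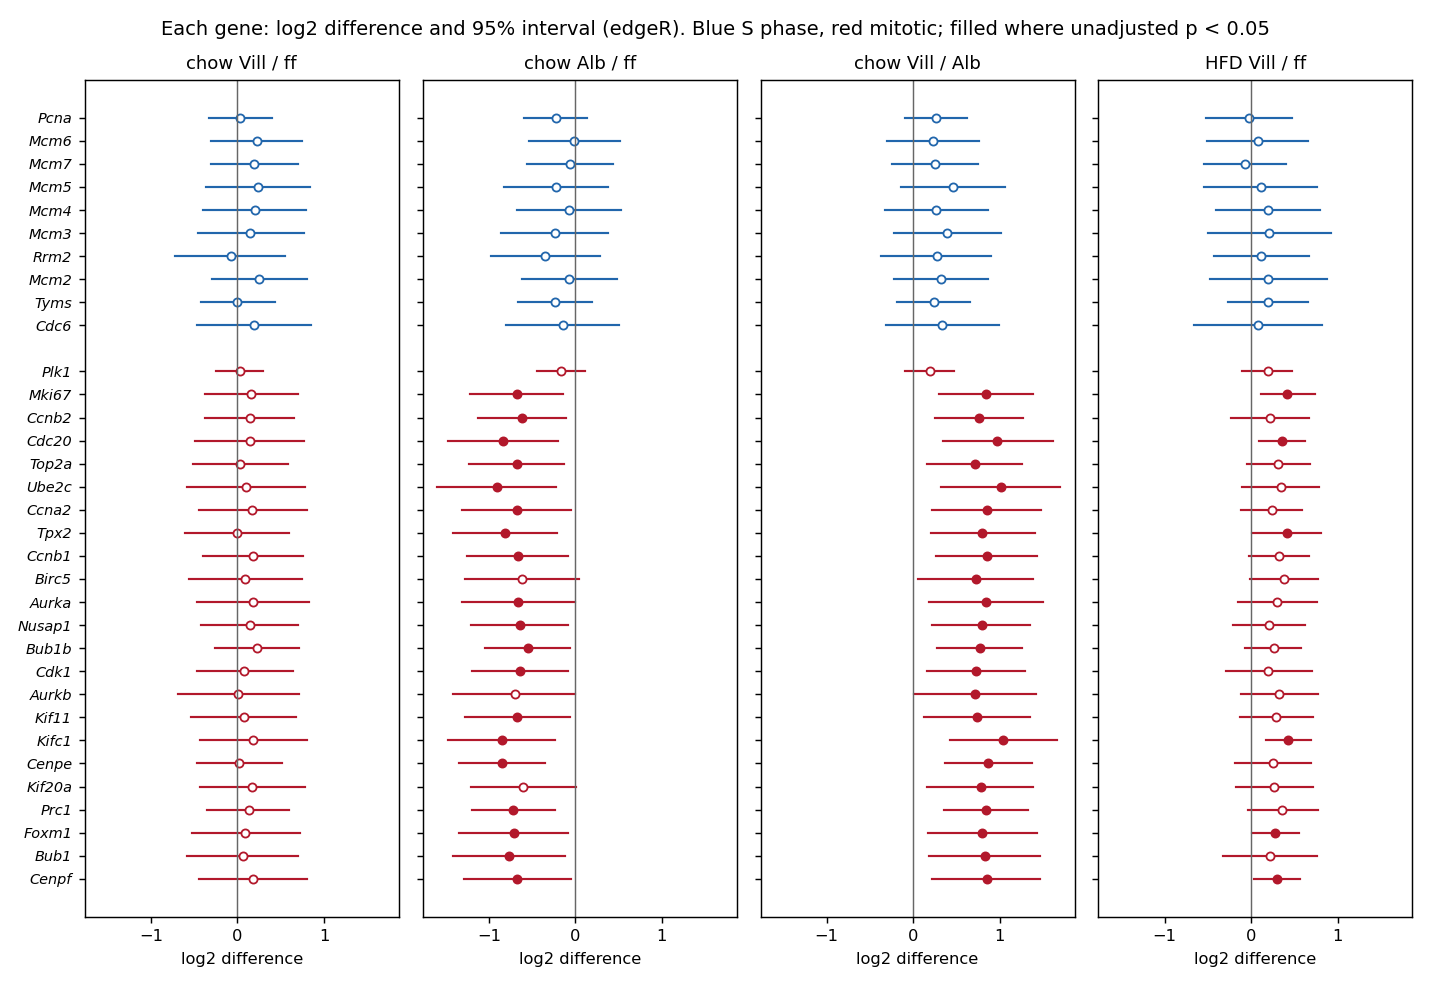
Log2 difference (horizontal axis) of each gene (vertical axis) with its 95% interval in 4 comparisons, S phase genes in blue above and mitotic genes in red below, filled where the unadjusted edgeR p was under 0.05. All mitotic genes lie left of 0 in Alb over ff and right of 0 in Vill over Alb, with Plk1 nearest to 0, and no S phase gene is filled in any comparison.

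Gut knockout colons were then set against the same ff controls on chow, the comparison of local loss of the enzyme. The S phase genes had a median log2 difference of 0.19 (range -0.08 to 0.25, 9 of 10 higher) and the mitotic genes 0.13 (range -0.01 to 0.22, 22 of 23 higher), against 50.8% of genes higher and a median of 0.00 over all genes. No member was called by edgeR (0.00508% of genes), DESeq2 (0.0116%) or limma-voom (0.00508%), none had an unadjusted p under 0.05 (0.797% of all genes were higher and 1.1% lower), and all groups overlapped. The intervals of the 23 mitotic genes reached from -0.69 to 0.83. Both medians moved with single libraries. The mitotic median was -0.01 without Vill 1 and -0.00 without ff 1, with 12 of 23 genes lower each time, 0.03 without ff 2 and 0.33 without ff 3. The S phase median was 0.08 without Vill 3, 0.09 without ff 1, 0.01 without ff 2, with 5 of 10 genes higher, 0.29 without Vill 4 and 0.38 without ff 4.

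The smallest p of each class belonged to Mcm2 and Bub1b. Mcm2 had 30.8, 33, 39.5 and 25.5 CPM in Vill, against 24.7, 19.7, 26.4 and 37.6 CPM in ff (log2 difference 0.25, edgeR adjusted p = 1.0, exact permutation p = 0.257). Mcm6 had 59.3, 61.3, 69.7 and 43.2 CPM in Vill, against 40.9, 33.2, 56.9 and 69.9 CPM in ff (0.22). For both genes ff 4 or Vill 3 was the highest colon and ff 2 the lowest. Bub1b, a spindle checkpoint protein, had 31.4, 22.0, 26.8 and 19.7 CPM in Vill, against 16.1, 19.6, 29.5 and 20.5 CPM in ff (log2 difference 0.22, edgeR adjusted p = 1.0, exact permutation p = 0.343). Ccnb1 had 35.9, 22.7, 29.1 and 24.2 CPM in Vill, against 22.1, 20.9, 32.7 and 23.2 CPM in ff (0.18). In both, Vill 1 was the highest of the 8.

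On HFD all 23 mitotic genes had a higher mean in Vill, with log2 differences of 0.19 to 0.43 and a median of 0.30, against 49.3% of genes higher and a median of -0.00 over all 17715 genes tested. Of the S phase genes 8 of 10 were higher, with a median of 0.11. No member was called by edgeR (0.00564% of genes), DESeq2 (0.0129%) or limma-voom (0.00564%). At an unadjusted edgeR p under 0.05, 6 mitotic genes were higher (Kifc1, Cdc20, Mki67, Cenpf, Foxm1 and Tpx2) and 0 S phase genes, against 1.41% of all genes, and the groups did not overlap for Kifc1 and Tpx2, against 1.22% of all genes. The mitotic count was 2 without HFD Vill 4, 3 without ff 1 or without ff 3, and 10 without ff 4. With the libraries labelled HFD ff 1 and 3 both left out, 1 mitotic gene had an unadjusted p under 0.05, 19 of 23 were higher, and the medians were 0.14 for mitotic and 0.02 for S phase genes. Scaling each library on its epithelial genes moved the median of all genes to -0.18. The mitotic median was then 0.11, which is 0.29 above that of all genes. The S phase median was -0.11, which is 0.07 above that of all genes, and no member had an unadjusted p under 0.05.

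Kifc1 had 17.1, 18.0, 17.6 and 19.2 CPM in Vill and 12.4, 15.0, 11.7 and 13.6 CPM in the libraries labelled ff, without overlap (log2 difference 0.43 ± 0.12 SE, edgeR adjusted p = 0.932, exact permutation p = 0.0286). It was at 0.34 (edgeR adjusted p = 1.0) without HFD ff 1 and 3. Cdc20 had 32.5, 38.7, 33.7 and 38.9 CPM in Vill and 28.1, 27.1, 23.4 and 32.5 CPM in ff, meeting at 32.5 CPM (log2 difference 0.36 ± 0.12 SE, edgeR adjusted p = 0.932, exact permutation p = 0.0571) and at 0.28 without HFD ff 1 and 3 (edgeR adjusted p = 1.0). Mki67 had 188, 233, 234 and 265 CPM in Vill and 154, 192, 140 and 193 CPM in ff. HFD Vill 1 lay within the ff range and the other Vill colons above it (log2 difference 0.42 ± 0.14 SE, edgeR adjusted p = 0.932, exact permutation p = 0.0857). Ccnb2, at 22.3, 23.5, 27.8 and 33.2 CPM in Vill and 17.5, 25.1, 18.0 and 30.1 CPM in ff, overlapped, and so did Foxm1, at 18.3, 20.1, 17.4 and 20.5 CPM in Vill and 15.9, 15.4, 13.4 and 17.4 CPM in ff.

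The S phase genes spread widely within both HFD groups. Tyms had 26.2, 39.8, 32.7 and 34.3 CPM in Vill and 28.9, 39.9, 20.0 and 26.4 CPM in ff (log2 difference 0.19, edgeR adjusted p = 0.932, exact permutation p = 0.429). Mcm4 had 34.7, 57.6, 27.3 and 38.7 CPM in Vill and 37.8, 47.2, 23.8 and 27.8 CPM in ff (0.19, edgeR adjusted p = 0.943, exact permutation p = 0.514). Colon 2 of each group was the highest and colon 3 or 1 the lowest. Pcna had 64.0, 109, 63.3 and 84.0 CPM in Vill and 92.6, 101, 58.5 and 69.5 CPM in ff (-0.02), and Mcm6 had 62.4, 98.7, 54.5 and 67.5 CPM in Vill and 73.0, 95.5, 47.0 and 49.5 CPM in ff (0.08). Their intervals reached from -0.52 to 0.47 for Pcna and from -0.51 to 0.66 for Mcm6. Without HFD Vill 2 the S phase median was -0.05.

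**Figure D5:**
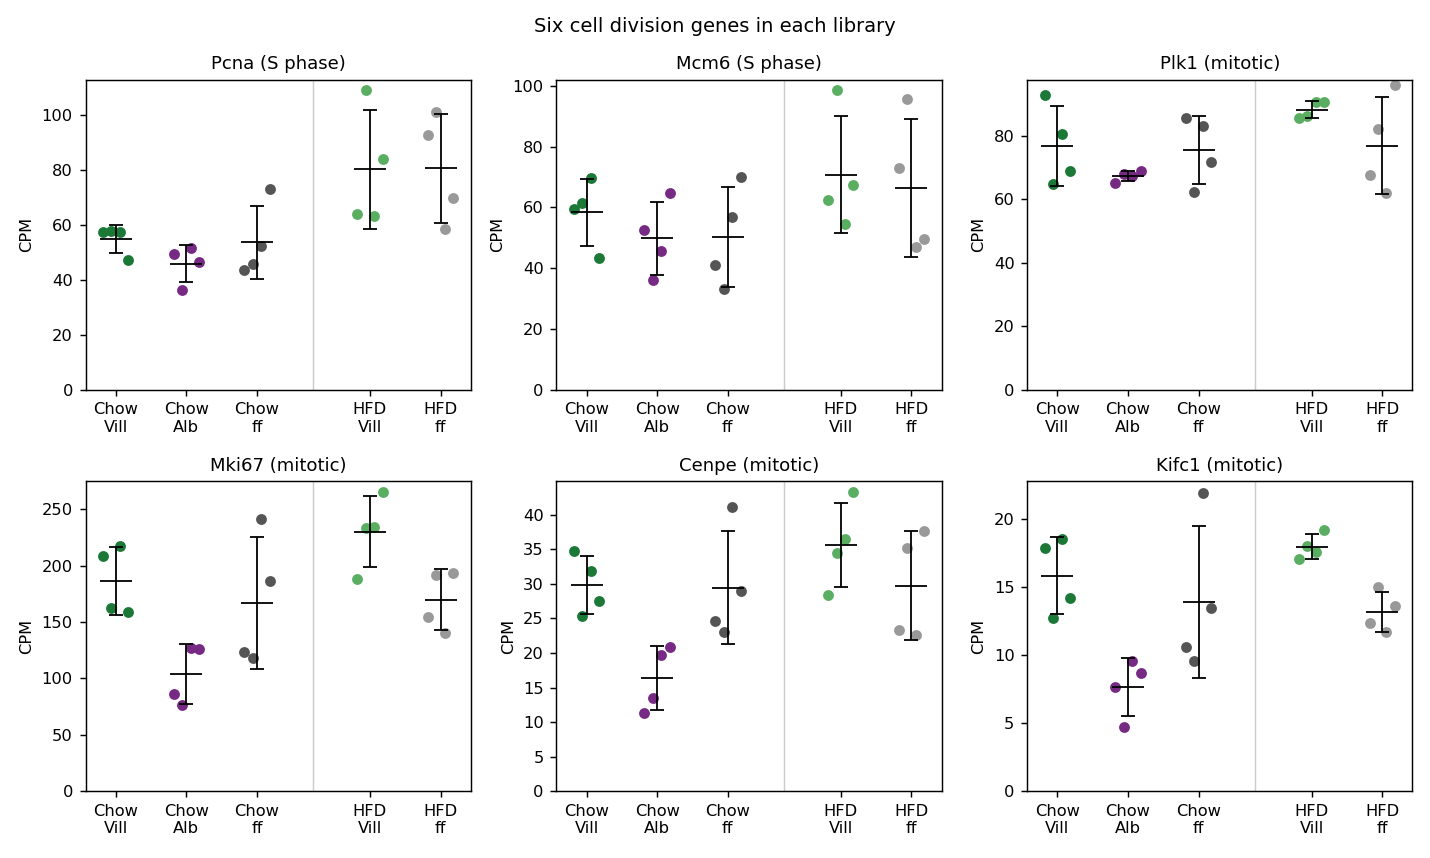
CPM (vertical axis) of 2 S phase genes (Pcna, Mcm6) and 4 mitotic genes (Plk1, Mki67, Cenpe, Kifc1) in each library (points) by group, with the mean and SD of 4 (black). Cenpe in chow Alb, 11.4 to 20.8 CPM, lies below both other chow groups, and Plk1 in chow Alb spans 65.2 to 69.1 CPM.

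Whether the Vill difference itself differed between diets was tested as HFD Vill over ff minus chow Vill over ff, in all 16 libraries. Age, sequencing and possibly sex differed along with diet, and their parts in this difference cannot be told apart. No member was called by edgeR, DESeq2 or limma-voom (0% of genes by each), and none had an unadjusted edgeR p under 0.05 (1.01% of all genes were higher and 1.53% lower). The mitotic median was 0.19 and the S phase median -0.05, against -0.01 over all genes; without the libraries labelled HFD ff 1 and 3 they were 0.01 and -0.11. Without chow ff 3 alone the mitotic median was -0.02, with 14 of 23 genes below 0, and without any other single library it was 0.08 to 0.29. The S phase median was -0.27 (without HFD Vill 2) to 0.16 (without HFD ff 2). The smallest p of each class belonged to Tpx2 (difference of log2 differences 0.42, 95% interval -0.24 to 1.08, edgeR adjusted p = 1.0) and Mcm7 (-0.26, interval -0.96 to 0.45, edgeR adjusted p = 1.0), followed by Birc5 (0.29) and the ribonucleotide reductase subunit Rrm2 (0.21). Tpx2 had 35.5, 34.7, 36.6 and 44.7 CPM in HFD Vill and 26, 33.7, 19.3 and 34.1 CPM in HFD ff, and 34.7, 27.8, 31.1 and 26.4 CPM in chow Vill and 22.4, 21.6, 45.5 and 31.4 CPM in chow ff. Mcm7 averaged 48.7 ± 10.6 CPM in HFD Vill and 50.4 ± 13.1 CPM in HFD ff, and 43.4 ± 8.56 CPM in chow Vill and 38.0 ± 11.9 CPM in chow ff (SD, n = 4 each).

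Plk1 stood apart from the other mitotic genes. It had 92.9, 64.9, 80.7 and 69.1 CPM in chow Vill, 65.2, 67.9, 67.3 and 69.1 CPM in chow Alb, and 85.5, 62.2, 83 and 71.8 CPM in chow ff. The Alb colons lay within 65.2 to 69.1 CPM, inside the ranges of both other groups. On HFD it had 85.6, 86.3, 90.7 and 90.6 CPM in Vill and 67.6, 82.3, 61.9 and 96.0 CPM in ff. Its window holds CHR letters like those of most mitotic genes. On the map (chromosome 7, 121758662 to 121769096 in mm39, plus strand) Plk1 ends 19 bases before the end of Ern2, an endoplasmic reticulum stress sensor of mucus-secreting epithelium transcribed towards it, and overlaps Gm44985 on the other strand by 1016 bases. Ern2 averaged 122 ± 6.76 CPM in chow Vill, 108 ± 15.8 in chow Alb and 116 ± 26.1 in chow ff, and Gm44985 averaged 31.4 ± 3.03, 31.3 ± 2.37 and 35.4 ± 4.47 CPM in the same groups (SD, n = 4 each). The library protocol does not settle whether strand was kept, without it reads of overlapping genes cannot be told apart, and the part of Plk1's neighbours in its level was not tested. Of the 33 genes, 16 overlap another annotated gene, 13 of them one on the opposite strand, and for 7 (Mcm7, Cdc20, Ccna2, Plk1, Kif20a, Nusap1 and Prc1) the overlapping gene averaged 1 CPM or more.

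Other genes of the same processes were read from lists of 55 mitotic and 42 S phase genes. Of the 55, 27 were lower in chow Alb than in ff at an unadjusted edgeR p under 0.05, against 2.66% of all genes (median log2 difference -0.54), led by Cks1b, a subunit of cyclin-dependent kinases (-0.73, exact permutation p = 0.0286), and the microtubule depolymerase Kif2c (-0.93, exact permutation p = 0.0286). In Vill over Alb 53 of the 55 had a higher mean (median 0.66). At an unadjusted edgeR p under 0.05, 41 of the 55 were higher, against 3.98% of all genes. These were led by the phosphatase Cdc25b (0.65) and the cohesin protector Sgo1 (1.11). Of the 42 other S phase genes, 34 had a lower mean in Alb than in ff, with a median of -0.19. At an unadjusted edgeR p under 0.05, 2 of the 42 were lower, a share near the 2.66% of all genes. They were Ccne1 (-0.49) and Gmnn (-0.33). In Vill over Alb 41 of the 42 had a higher mean, with a median of 0.31. At that threshold 4 of the 42 were higher, Ccne1 (0.58) among them, against 3.98% of all genes. In chow Vill over ff 0 of the 55 and 0 of the 42 had an unadjusted p under 0.05. On HFD 53 of the 55 and 29 of the 42 had a higher mean in Vill. At that threshold 6 of the 55 were higher, against 1.41% of all genes, Incenp (0.43) and Kif4 (0.46) first. Among the 42, Rfc2 was lower at that threshold (-0.27). No gene of these lists was called by edgeR, with 0 adjusted p under 0.05 in any comparison.

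Regulators of the G1 phase decide whether a cell enters the cycle. Their list and that of crypt stem cell genes had medians nearer to 0 than the mitotic genes in both comparisons with Alb. The G1 list mixes genes that promote the cycle with inhibitors of it. Opposite differences can cancel there, so its median does not measure how far its genes differed. Of 26 tested G1 regulators and inhibitors 1 was lower in Alb than in ff at an unadjusted edgeR p under 0.05 (Ccng1, -0.25), a share near the 2.66% of all genes, and the median was -0.04. In Vill over Alb 19 of the 26 had a higher mean and 7 a lower one, with a median of 0.16. At that threshold 2 were higher (Cdk6 at 0.44 and Ccng1 at 0.21), against 3.98% of all genes, and Btg1 was lower (-0.37). In chow Vill over ff 1 of the 26, Cdk6, was higher at that threshold, against 0.797% of all genes (log2 difference 0.37, exact permutation p = 0.0857). Of 13 tested crypt stem cell genes 0 were at an unadjusted p under 0.05 in Alb over ff (median -0.03). In Vill over Alb 12 of the 13 had a higher mean, with a median of 0.25. At that threshold 2 were higher (Ephb2 at 0.43 and Axin2 at 0.47), against 3.98% of all genes. The 1 other, Nkd1, was lower at that threshold (-0.83), against 964 of 19701 genes. In chow Vill over ff the stem cell median was 0.13, equal to that of the 23 mitotic genes, and in the difference between diets it was -0.18. The stem cell sums were 618 to 920 CPM in chow Vill, 568 to 730 CPM in chow Alb and 570 to 744 CPM in chow ff.

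Some lists of markers of other cell types had medians away from 0, and others did not. In chow Vill over ff the median was 0.01 for epithelium, -0.01 for mature colonocytes and 0.02 for T cells. In Vill over Alb it was -0.01 for small intestine genes, with 7 of 15 tested higher and 8 lower. Their log2 differences reached from -0.59 to 5.94 there, and 2 were higher at an unadjusted edgeR p under 0.05, against 3.98% of all genes. In Alb over ff they reached from -5.12 to 0.26, with 0 at that threshold. Sis averaged 15.1 CPM in chow Vill, 8.59 in chow ff and 0.247 in chow Alb. In Alb over ff the median log2 difference was -0.07 for 17 epithelial genes, -0.51 for 10 goblet cell genes, 0.37 for 10 smooth muscle genes and 0.52 for 13 neuron and glia genes. Of the smooth muscle and the neuron and glia genes 0 had an unadjusted edgeR p under 0.05 there, against 342 of 19701 genes higher. Their median SE was 0.47 and 0.52. Muscle genes summed to 4950 to 12700 CPM in Alb, against 4480 to 9230 CPM in ff. In Vill over Alb the medians were 0.13 for epithelium, -0.85 for smooth muscle and -0.87 for neuron and glia. There 3 of 10 smooth muscle and 2 of 13 neuron and glia genes were lower at an unadjusted edgeR p under 0.05. Of all genes, 964 of 19701 were. Muscle genes summed to 1160 to 7400 CPM in Vill. Of 12 germinal centre and B cell genes 11 were lower in Alb than in ff (median -0.75) and 12 higher in Vill than in Alb (median 0.52); they summed to 36.5, 259, 189 and 40.2 CPM in Vill, 35.0, 57.1, 30.8 and 262 CPM in Alb and 196, 34.9, 94.1 and 330 CPM in ff, and 4 of the 12 were at 0 in at least 1 library. Alb 4, ff 4 and Vill 2 had the most of their groups. The mitotic sums were highest in Alb 3, ff 3 and Vill 1, and the S phase sums in Alb 4, ff 4 and Vill 3. Of 10 T cell genes 9 were lower in Alb than in ff (median -0.35) and 9 higher in Vill than in Alb (median 0.36). In chow Vill over ff the medians were -0.51 for smooth muscle, with 10 of 10 genes lower, -0.27 for goblet cells and -0.26 for neuron and glia. On HFD 13 of 13 neuron and glia genes (median -0.82), 8 of 8 tested T cell genes (median -0.87) and 15 of 17 tested small intestine genes (median -0.83) had a lower mean in Vill than in ff, while 15 of 17 epithelial genes had a higher one (median 0.18). T cell genes summed to 6.37, 5.61, 11.5 and 29.9 CPM in HFD Vill and 14.9, 12.2, 60.9 and 9.67 CPM in the libraries labelled HFD ff. Neuron and glia genes summed to 163, 167, 82.5 and 19.4 CPM in HFD Vill and 321, 89.9, 212 and 110 CPM in HFD ff. For both lists and for the small intestine genes, HFD ff 2 and 4 lay within the range of HFD Vill. The highest sums of these lists were in HFD ff 1 or 3, and the list medians include both libraries. Scaled on the epithelial genes alone, the mitotic medians on chow were -0.67 in Alb over ff and 0.77 in Vill over Alb. The part of muscle, nerve, immune and small intestine cells in the mitotic and S phase differences was not tested.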

How the data were processed

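RNA was measured by poly-A RNA-seq in 20 mouse colon libraries. Per the submitters' processing notes the genome build was mm39 and the authors' tools included edgeR 3.22.5, DESeq2 1.20.0, featureCounts 1.5.0-p3 and HISAT2 2.0.5; the deposited tables hold raw counts per gene; 28 further per-sample columns were not used. The authors' deposited comparisons give log2 fold changes, p-values and adjusted p-values. From the counts, edgeR 4.0.16 (R 4.3.3) gave quasi-likelihood F tests with TMM scaling, filterByExpr and Benjamini-Hochberg adjustment over all genes tested, in 1 fit of the 12 chow libraries, 1 of the 8 HFD libraries and 1 of the 16 ff and Vill libraries for the difference between diets. DESeq2 1.42.0, limma-voom (limma 3.58.1), other scalings, no filter, a replicate block, only the libraries compared and leaving out libraries were alternatives. Calls required an adjusted p below 0.05. Exact permutation tests, 2-sided, used log2(CPM + 0.5) over 70 assignments. CPM printed are TMM-scaled over all 20 libraries for genes in both tables; per kb means per kb of annotated exon.

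Values of every library are given for the 3 genes of each class with the highest CPM per kb, for Mki67 and Foxm1, and for the 2 genes of each class with the smallest p in each comparison; from each other list the 2 genes with the smallest p are named, except for 1 result not reported here, and further genes were named after their values were seen. The genes and lists were chosen with earlier results of these data known. Genes of a list can rise and fall together in a library, so a count of them is not a count of independent observations. Replicates are separate samples per the labels; where they are not separate animals, p-values measure the spread between these samples only. No 2 libraries of a group agreed within sampling noise. The scripts were tested on simulated data. Errors are SD for levels and SE for log2 differences, and counting error alone understates them.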

Additional observations from a re-analysis of the deposited data

Results flagged for a closer look

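In 5 of 180 groups of 4 libraries 1 library lay far from the other three, its gap to the nearest of them, as a share of the range, being above Dixon's critical value; chance alone gives about 1 in 20 such groups. Mcm7 had 64.5 CPM in HFD Vill 2, against 41.4 to 45.1 CPM in the other HFD Vill colons, the colon that was also highest for most S phase genes. Pcna had 47.3 CPM in chow Vill 4, against 57.2 to 57.5 CPM in the others. Rrm2 had 19.7 CPM in chow Vill 1, against 13.1 to 14.0 CPM in the others. Ccnb1 had 41.1 CPM in HFD Vill 4, against 28.3 to 30.2 CPM in the others, the colon with the highest level of most mitotic genes. Bub1 had 7.86 CPM in the library labelled HFD ff 3, against 15.0 to 16.4 CPM in the others.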

How the results depend on the processing

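The replicate numbers of the labels did not pair the colons: deviations of same-numbered libraries correlated at -0.571 to 0.472 on chow and -0.395 to 0.446 on HFD. With a replicate block the mitotic genes at an unadjusted p under 0.05 numbered 22 in Alb over ff, 22 in Vill over Alb and 10 in HFD Vill over ff, and the genes called among all tested were 0 in chow Vill over ff and 0 in Vill over Alb. DESeq2 called 4 genes in chow Vill over ff, 4 in Alb over ff, 65 in Vill over Alb and 4 on HFD, none of them a member, and without a filter 2 genes were called in chow Vill over ff. Without HFD ff 1 and 3 together 2 genes were called on HFD and 1 mitotic gene had an unadjusted p under 0.05; with epithelial scaling that count was 0. In the shorter promoter window, 100 bases before to 50 bases after the start, E2F letters stood in 1 of 19 mitotic windows (5.3%) and 3 of 10 S phase windows (30.0%). Of all windows 5.6% held them. The cause of these moves was not tested.

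Small differences changed sign. With epithelial scaling Plk1 in chow Vill over ff was at -0.02, Mcm4 and Mcm6 on HFD at -0.02 and -0.14, and Ccnb2 in the difference between diets at -0.02. That scaling put the median of all genes at -0.02 in chow Vill over ff. It was -0.18 on HFD and in the difference between diets, and Mcm4, Mcm6 and Ccnb2 stayed above it. Mcm6 in Alb over ff was at 0 with RLE scaling and DESeq2 and at 0.01 with limma-voom and the replicate block. Without HFD ff 1 and 3 together Mcm6, Plk1 and Ccnb2 on HFD were at -0.03, -0 and -0.04, and in the difference between diets Plk1 was at -0.03 and Ccnb2 at -0.19.

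Leaving out 1 library at a time gave 4 to 22 mitotic genes at an unadjusted p under 0.05 in Alb over ff, 2 to 10 on HFD, and 0 to 2 S phase genes in Vill over Alb. Log2 differences that changed sign ranged, in chow Vill over ff, from -0.06 to 0.20 for Pcna, -0.09 to 0.09 for Plk1, -0.01 to 0.33 for Ccnb2 and -0.05 to 0.29 for Foxm1. In Alb over ff they ranged from -0.15 to 0.19 for Mcm6 and -0.19 to 0.13 for Mcm7. On HFD they ranged from -0.04 to 0.39 for Mcm4, -0.20 to 0.11 for Pcna, -0.12 to 0.31 for Mcm6 and -0.23 to 0.07 for Mcm7. In the difference between diets they ranged from -0.24 to 0.07 for Pcna, -0.34 to 0.09 for Mcm6, -0.12 to 0.24 for Ccnb2 and -0.02 to 0.32 for Foxm1. The mitotic medians kept their sign in each of these fits in Alb over ff (-0.82 to -0.46), Vill over Alb (0.63 to 0.94) and HFD Vill over ff (0.18 to 0.35), but not in chow Vill over ff (-0.01 to 0.33) or the difference between diets (-0.02 to 0.29). With 4 colons a group, intervals of S phase genes in Alb over ff reached -0.98, so that differences of the size of the mitotic median lay within some of them.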
